A study of Mus musculus with 2 samples.

Results

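Basophil-lineage cells of mouse bone marrow were selected from single-cell libraries by their transcripts, and they numbered 346 of the 23794 barcodes that passed the quality limits. A barcode was kept if it held at least 1000 unique molecular identifiers (UMIs, each standing for 1 captured transcript) with under 10% of them mitochondrial. A kept barcode counted as basophil-lineage if it held at least 3 UMIs of Mcpt8 and Prss34 together and at least 1 UMI of Ms4a2, Fcer1a and Cpa3 together. S100a8 and S100a9 had to make up under 5% of its UMIs. Because these 7 genes and the mitochondrial share chose the cells, their levels are given below as a description only.

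The study compared marrow haematopoietic cells of 2 genotypes, with 1 library for each. The control library came from marrow labelled Mx1Cre+/-;Rosa26+/+ and held 185 of the basophil-lineage cells. The MYC library came from Mx1Cre+/-;Rosa26LSL-MYC/LSL-MYC marrow and held 161. Both genotypes thus carried the Mx1-Cre transgene, whose interferon-inducible promoter is active in blood stem cells and in many of their descendants; only the MYC genotype carried the MYC cassette behind a removable stop in both Rosa26 alleles. Age, sex, any induction of Cre and the number of animals per library are not given in the sources used here. With 1 library per genotype no test between genotypes was possible, and genotype cannot be told apart from animal or library preparation. All intervals below are 95% intervals that cover counting error only.

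Basophils are rare granulocytes that arise in the marrow from GATA2-expressing progenitors. They bind IgE through the high-affinity receptor FcεRI, store histamine and serine proteases in granules, and release IL-4, IL-6 and chemokines when triggered. Mcpt8 and Prss34 encode the basophil proteases mMCP-8 and mMCP-11, Cpa3 encodes a carboxypeptidase shared with mast cells, and Ms4a2 and Fcer1a encode the β and α chains of FcεRI.

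Upstream sequence is shown for 3 genes: the proteases used for selection and Klf2, which had the largest ratio between the libraries among the genes named by rule below. Each window is the RefSeq promoter entry on GRCm38.p6, read 5′ to 3′ on the gene's own strand and ended before the start of the gene in GENCODE vM21. Capitals mark AGATAA, a motif of GATA factors, and TGTGGT, a motif of RUNX factors, on either strand (ACCACA is the reverse complement of TGTGGT); the E-box CACGTG, a motif of MYC and MAX, was searched too. The windows lie at chr14:56085274-56085447 on the minus strand for Mcpt8, at chr17:25298144-25298393 on the plus strand for Prss34, and at chr8:72318812-72319032 on the plus strand for Klf2.
Mcpt8: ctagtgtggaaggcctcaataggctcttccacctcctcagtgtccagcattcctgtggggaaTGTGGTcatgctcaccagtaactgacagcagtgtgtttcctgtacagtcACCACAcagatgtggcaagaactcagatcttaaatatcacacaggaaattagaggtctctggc
Prss34: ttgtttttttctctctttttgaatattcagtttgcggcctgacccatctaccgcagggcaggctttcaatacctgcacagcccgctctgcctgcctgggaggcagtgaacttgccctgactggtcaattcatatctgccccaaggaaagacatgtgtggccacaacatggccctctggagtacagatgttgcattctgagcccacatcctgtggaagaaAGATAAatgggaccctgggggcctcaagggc
Klf2: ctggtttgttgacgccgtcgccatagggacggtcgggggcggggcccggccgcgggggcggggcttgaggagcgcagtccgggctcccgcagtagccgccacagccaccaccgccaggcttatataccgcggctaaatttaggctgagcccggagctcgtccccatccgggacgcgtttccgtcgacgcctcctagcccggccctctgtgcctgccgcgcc
The Mcpt8 window held 2 matches to TGTGGT; of all 32851 promoter entries, 10.0% hold at least 1 match and 0.621% at least 2 in a window of the same 174 bases. The Prss34 window held 1 match to AGATAA, which 9.99% of entries hold in 250 bases. The Klf2 window of 221 bases held no match to the 3 motifs, and CACGTG was in none of the 3 windows; 5.02% of entries hold CACGTG in 221 bases. A match is a string of letters, and none of these data measured binding.

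The selected cells also carried basophil transcripts that the rule did not use, while granule proteases and receptors particular to mast cells were at or near 0. Cd200r3, an activating receptor of basophils and mast cells, stood at 568 CPM in control cells and 350 CPM in MYC cells, against 1.25 and 0.668 CPM in all other kept barcodes (CPM are counts per 1000000 UMIs, here over the UMIs summed across the cells of a library). Cyp11a1, a steroid-synthesis enzyme, stood at 332 and 301 CPM, against 1.33 and 0.609 CPM in the others. Of the genes that chose the cells, Mcpt8 stood at 16951 CPM in control cells and 17500 CPM in MYC cells. In all other kept barcodes Mcpt8 stood at 32.5 and 30.3 CPM. Prss34 stood at 15081 CPM in control cells and 16568 CPM in MYC cells, against 28.2 and 23.4 CPM in the other barcodes. Of 8 mast cell protease and receptor genes (Cma1, Mcpt1, Mcpt2, Mcpt4, Tpsb2, Tpsab1, Mrgprb1 and Mrgprb2), 7 had no UMI in any selected cell. Mcpt2 had 1 UMI, in a cell of the MYC library. A count of 0 allows up to 1.45 CPM in control cells and 1.62 CPM in MYC cells, since 3 UMIs are the limit that 0 allows. Kit, the stem cell factor receptor that mast cells share with stem and progenitor cells, was present in 35 of 185 control and 23 of 161 MYC cells, at 47.2 and 32.4 CPM against 32.5 and 25.9 CPM in the others. Although the rule was written for the basophil and mast lineages, the 8 genes were thus at or near 0, and the cells are called basophil-lineage throughout. The name is least sure for the 23 control and 19 MYC cells with only 3 to 9 UMIs of Mcpt8 and Prss34. In 1 such control cell these genes made up 0.00635% of 63029 UMIs, and Mpo and Elane held 454.

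These cells varied widely in how much protease transcript they held. Mcpt8 and Prss34 together made up a median of 2.59% of a cell's UMIs in the control (quartiles 0.499% and 6.05%, highest 10.5%). In the MYC library the median was 3.57% (quartiles 0.832% and 5.82%, highest 9.56%). Mcpt8 was present in 184 of 185 control cells and 161 of 161 MYC cells, while Prss34 was missing from 24 and 23. Median depth was 9338 UMIs per control cell and 9456 per MYC cell, with upper quartiles of 13987 and 16196. At the edge of the rule, 7 control and 8 MYC cells had exactly 3 protease UMIs and were in, while 19 and 9 otherwise eligible barcodes had exactly 2 and were out. A further 26 control and 25 MYC barcodes had the proteases but no UMI of Ms4a2, Fcer1a or Cpa3. The limit on S100a8 and S100a9, the abundant neutrophil transcripts, left out 19 and 14 barcodes. No selected cell shared its barcode with the other library, although 97 barcodes of the full matrices occurred in both.

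The share of kept barcodes in the basophil lineage was close in both libraries. It was 1.40% in the control (185 of 13251, exact Clopper-Pearson interval 1.20% to 1.61%) and 1.53% in the MYC library (161 of 10543, 1.30% to 1.78%). The difference, MYC minus control, was 0.131 percentage points with a Newcombe interval of -0.180 to 0.449. Shares of this size depend on how many other cells each library held, and a change in basophils cannot be told apart from a change in the rest.

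Each library held both dividing and non-dividing basophil-lineage cells. A cell was called dividing if it held at least 2 UMIs of Mki67 and Top2a, genes transcribed in cycling cells. By that rule 107 of 185 control cells (57.8%, 50.4% to 65.0%) and 103 of 161 MYC cells (64.0%, 56.0% to 71.4%) were dividing. The difference was 6.14 points with an interval of -4.58 to 16.7, which covers counting error over cells and includes 0. After each cell was thinned at random to 1000 UMIs, 28.1% and 27.3% still passed. Dividing cells were deeper, at medians of 12398 and 13614 UMIs against 5534 and 5550 in non-dividing cells, so the calls move with depth. Protease transcripts, which chose the cells and are given as a description, made up a median of 5.14% of UMIs in dividing control cells and 1.02% in non-dividing ones. In the MYC library the medians were 5.21% and 1.74%.

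**Figure D1:**
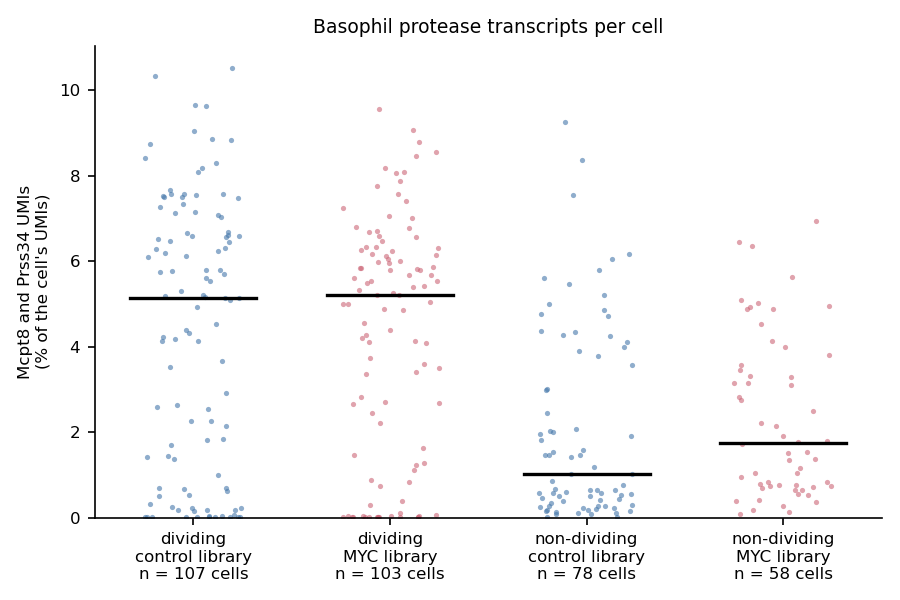
Share of each cell's UMIs that came from Mcpt8 and Prss34 (y axis, percent), for dividing and non-dividing basophil-lineage cells of each library (x axis). Each point is 1 cell and each bar a median; the medians of dividing cells, 5.14% and 5.21%, lie above those of non-dividing cells, 1.02% and 1.74%.

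Most chemokine and cytokine genes were lower in dividing than in non-dividing cells of both libraries. Of the 9 cytokine and chemokine genes with at least 300 UMIs, 7 were at least 2-fold lower in dividing cells of both libraries, while Mif, macrophage migration inhibitory factor, was higher (2.19 and 1.75). Over all 1969 genes at that depth the share was 4.37%, and 10.8% were at least 2-fold higher in dividing cells of both libraries. Ccl4, a chemokine for monocytes and lymphocytes, stood at 1053 CPM in non-dividing and 129 CPM in dividing control cells. In the MYC library Ccl4 stood at 1245 and 105 CPM. The log2 ratio of dividing over non-dividing cells was -3.47 in control cells and -2.75 in MYC cells for Ccl6, and -2.63 and -2.70 for Ccl9. For Osm, which encodes the IL-6 family cytokine oncostatin M, the ratios were -2.46 and -2.20. Il6 itself gave -1.41 and -2.16.

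Some receptor and adhesion genes of mature basophils were lower in dividing cells too. Of those with at least 300 UMIs, 3 of 8 cytokine receptor genes, 1 of 5 receptors for chemoattractants and lipids and 6 of 19 surface and adhesion genes were at least 2-fold lower in dividing cells of both libraries, and none was 2-fold higher, beside 4.37% and 10.8% of all genes. Csf2rb, the β chain that signals for IL-3, IL-5 and GM-CSF, was lower in dividing cells by log2 ratios of -1.64 and -1.45. Il18r1, a chain of the IL-18 receptor, gave -2.15 and -1.96, and the chemokine receptor Cxcr2 gave -2.20 and -2.06. Among granule content genes, Hdc, the enzyme that makes histamine, gave -1.18 in control cells and -1.56 in MYC cells. Of the 11 such genes with at least 300 UMIs, some of which chose the cells, only 1 was at least 2-fold lower in both libraries and 2 were higher. Ccr1, another chemokine receptor, gave -0.80 and -0.92, and Il3ra gave -0.14 and -0.24. Genes of the primary granules of early granulocytes lay on the other side, with log2 ratios of 2.06 and 2.77 for Elane and 1.49 and 1.28 for Ctsg. Cells with at least 10 UMIs of Mpo and Elane numbered 57 of the 107 dividing and 10 of the 78 non-dividing control cells, and 51 of 103 and 6 of 58 in the MYC library. Some dividing cells with very little protease transcript were rich in Mpo and Elane. MYC cells of 31097, 37274 and 29803 UMIs held 498, 536 and 357 such UMIs, at protease shares of 0.00965%, 0.0161% and 0.0168%. A control cell of 41498 UMIs held 734 at 0.00723%. Cells with more protease held them too, such as a dividing control cell with 497 at 0.988%. The Elane and Ctsg ratios without the cells of 3 to 9 protease UMIs were not tested. Among 14 immediate early and dissociation-induced genes, 7 were also at least 2-fold lower in dividing cells of both libraries, including Zfp36 at -2.66 and -2.98, and Hsp90aa1 was higher (1.25 and 1.19), beside the same 4.37% and 10.8%; their part in the chemokine difference was not tested.

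**Figure D2:**
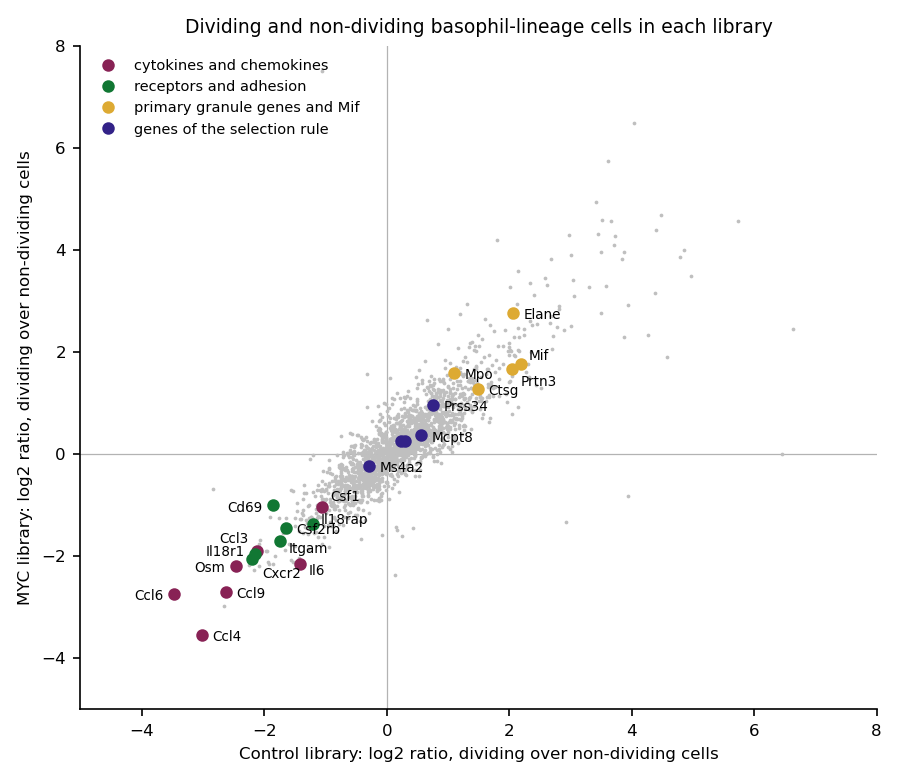
Log2 ratio of CPM plus 1 in dividing over non-dividing basophil-lineage cells, control library on the x axis and MYC library on the y axis; grey points are the 1969 genes with at least 300 UMIs and coloured points are named genes. 7 of the 9 chemokine and cytokine genes lie at the lower left (Ccl4 at -3.02 and -3.55), Mif lies at the upper right (2.19 and 1.75) and primary granule genes at the upper right (Elane at 2.06 and 2.77), and 1680 of the 1969 genes have the same sign in both libraries.

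Between the libraries, genes were compared on the UMIs summed over the 185 and 161 cells, 2074154 and 1854447 UMIs in all. Ratios are log2 of CPM plus 1 in the MYC over the control library, with an exact binomial interval. Of 5160 genes with at least 100 UMIs, 375 (7.27%) were at least 1.5-fold higher and 742 (14.4%) at least 1.5-fold lower in the MYC library. The median over all 5160 genes was -0.13. Scaling the libraries so that this median was 0 gave 641 higher and 416 lower, so the balance of higher and lower calls rests on the scaling. Leaving Gm42418, an unnamed locus at 93943 CPM in control cells and 44677 CPM in MYC cells, out of the totals gave 253 higher and 1011 lower. In all other kept barcodes of the same 2 libraries, 6.84% of these 5160 genes were 1.5-fold higher and 10.8% lower. Of the 375 genes higher here 209 (55.7%) were also higher there, and of the 742 lower here 258 (34.8%) were also lower there.

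Klf2 had the largest ratio among the 24 genes named by rule. The rule asks for an average of 100 CPM over both libraries, and Klf2 passed it only through its level in the MYC library, so its place in that order is a description. The same holds for Acbd6 among the higher genes and for Tapbp, Nhsl2, Prrc2a, Clec2d and Edem3 among the lower ones, which averaged 100 CPM only through the library where they are high. Klf2 encodes a zinc-finger transcription factor associated with quiescence and trafficking of lymphocytes and with restraint of inflammatory genes in myeloid cells; the gene lies at chr8:72319033-72321656 (GRCm38, GENCODE vM21, plus strand). It had 41 UMIs in 23 of 185 control cells and 369 UMIs in 84 of 161 MYC cells. As a level that was 19.8 CPM in control cells and 199 CPM in MYC cells, a log2 ratio of 3.27 (2.86 to 3.83). The share of cells with a Klf2 UMI was 12.4% (8.05% to 18.1%) against 52.2% (44.2% to 60.1%). Thinned to 1000 UMIs per cell, the shares were 1.62% and 16.1%. No single cell carried the difference, since the richest held 6 UMIs among control and 30 among MYC cells, and the log2 ratio without the richest cell of each was 3.37.

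Klf2 was higher in the MYC library in dividing cells, with a log2 ratio of 3.39, and in non-dividing cells, with 3.13. The protease transcripts chose the cells, so levels along the protease share are given as a description. When the cells of each library were cut into 4 groups of near-equal size by their protease share, a Klf2 UMI was found in 5 of 47, 7 of 46, 9 of 46 and 2 of 46 control cells from the lowest group to the highest. The matching counts in the MYC library were 16 of 41, 19 of 40, 23 of 40 and 26 of 40. Each group of the MYC library thus lay above all 4 groups of the control. Other cells of the marrow had a smaller ratio: 0.90 over all other kept barcodes (173 and 324 CPM), 1.65 in granulocyte progenitors and 0.91 in megakaryocyte-lineage cells. The share of cells with a Klf2 UMI was 58.8% and 73.9% in the other barcodes and 27.2% and 54.2% in granulocyte progenitors. In megakaryocyte-lineage cells it was 15.9% and 13.5% (18 of 113 and 10 of 74), at median depths of 18217 and 10412.5 UMIs. The part of free RNA in the Klf2 level was not tested. As a description, the 18 neutrophil markers that the rule did not use stood in the selected cells at 4.78% and 3.88% of their summed level in the other barcodes. The same percentages of the Klf2 level there are 8.28 and 12.6 CPM. The 18 include Cxcr2, and the percentages do not separate free RNA from doublets or from expression by the selected cells.

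**Figure D3:**
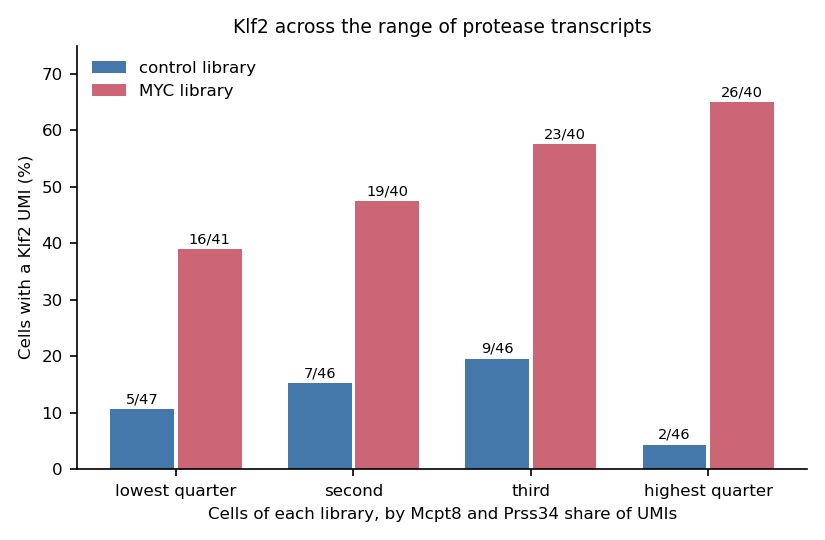
Percent of basophil-lineage cells with at least 1 Klf2 UMI (y axis) in 4 groups of cells per library ordered by the share of their UMIs from Mcpt8 and Prss34 (x axis), with the counts of cells above each bar. The MYC library lies above the control in every group, with 26 of 40 against 2 of 46 cells in the highest.

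The other genes named as higher in the MYC library were mostly higher across the marrow as well. Rbm3, a cold-inducible RNA-binding protein, stood at 384 and 1063 CPM, a log2 ratio of 1.47 (1.35 to 1.59), against 1.33 in the other barcodes. Ubb, a ubiquitin gene, gave 1.29 and 1.19 in the same order, and the galectin gene Lgals1 gave 1.13 and 1.10. Lgals3 gave 1.24 in the selected cells and 1.52 in the others, and Ifitm2 gave 1.21 and 1.82. Further genes had a higher ratio in the selected cells than in the other barcodes and in granulocyte progenitors. S100a6, a calcium-binding protein, stood at 183 and 582 CPM, a log2 ratio of 1.67 (1.501 to 1.84) against 0.83 in the others and 0.58 in granulocyte progenitors. Serpinb1a, which encodes an inhibitor of neutrophil serine proteases, stood at 214 and 593 CPM, a ratio of 1.46 (1.31 to 1.63) against 0.80 and 0.30. In megakaryocyte-lineage cells the ratio was 1.10 (0.75 to 1.48) for Serpinb1a and -0.16 (-0.51 to 0.17) for S100a6. Vdac2, AY036118, Atp5g1 and Acbd6 completed the 12, with ratios from 1.02 to 1.06.

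Neutrophil transcripts in the selected cells are given beside these genes. The selection limited S100a8 and S100a9, which stood together at 3983 CPM in control cells and 4213 CPM in MYC cells; in non-dividing cells they stood at 3576 and 9067 CPM, and in dividing cells at 4115 and 3130 CPM. The 18 other neutrophil markers measured summed to 2382 and 2151 CPM, against 49799 and 55420 CPM in the other barcodes. The sum of the 18 was 2262 CPM in dividing control cells and 1795 CPM in dividing MYC cells. Non-dividing cells had 2753 and 3746 CPM of them, so that the sum was the higher one in the MYC library there. S100a6 had a log2 ratio of 1.41 in dividing and 2.29 in non-dividing cells, and the part of neutrophil RNA in it was not tested. S100a6 at the 4.78% and 3.88% of its level in the other barcodes given above would be 72.8 and 105 CPM.

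Of the 12 genes named as lower, Csf2rb was farthest from its ratio in the rest of the marrow. It lies at chr15:78325752-78353847 on the plus strand and had 1043 UMIs in 178 control cells and 470 UMIs in 148 MYC cells. Its level was 503 CPM in control cells and 253 CPM in MYC cells, a log2 ratio of -0.99 (-1.15 to -0.83). In all other kept barcodes the ratio was 0.18 and in granulocyte progenitors 0.20. It was -0.78 in dividing and -0.97 in non-dividing cells. Dividing cells, where Csf2rb was lower, held 1566264 of the control UMIs and 1516194 of those in the MYC library, a larger part of the latter. A Csf2rb UMI was found in 96.2% and 91.9% of cells, and in 44.3% and 36.6% after thinning to 1000 UMIs. The interval of the thinned difference, -18.2 to 3.10 points, includes 0. The neighbouring and very similar Csf2rb2, the IL-3-specific β chain of mice, stood at 81.5 and 59.9 CPM with a ratio of -0.44 (-0.80 to -0.09); reads of such close copies can be split or lost in counting, so the size for either gene is uncertain. Il3ra, the α chain that pairs with them, stood at 139 and 121 CPM (-0.20, -0.46 to 0.06).

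The other genes named as lower were Tapbp, Rgs2, Nhsl2, Prrc2a, Ptprs, Ddx17, Clec2d, Cbfa2t3, BC005537, Edem3 and Hspa5. Tapbp, which encodes tapasin of the MHC class I loading complex, stood at 188 and 80.3 CPM, a log2 ratio of -1.22 (-1.51 to -0.95) against -0.74 in the other barcodes. Rgs2, a brake on G protein signalling, stood at 244 and 116 CPM (-1.07, -1.31 to -0.84) against -0.54. Hspa5, the endoplasmic reticulum chaperone BiP, stood at 890 and 466 CPM (-0.93, -1.05 to -0.82) against -0.42. The ratio of Hspa5 was -1.06 in dividing and -0.40 in non-dividing cells, and in cells with no UMI of Mki67 or Top2a it was 0.61 on 156 UMIs.

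**Figure D4:**
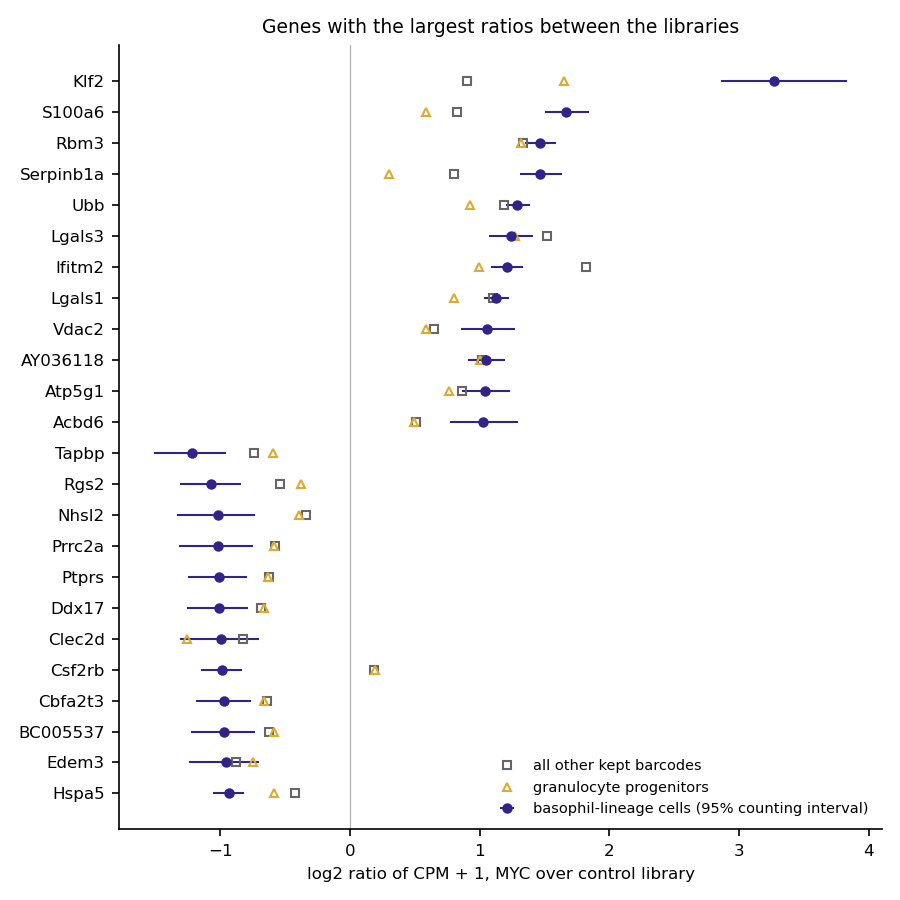
Log2 ratio of CPM plus 1, MYC over control library (x axis), for the 12 highest and 12 lowest genes named by rule (y axis); filled points with bars are basophil-lineage cells with 95% counting intervals, squares all other kept barcodes, triangles granulocyte progenitors. Klf2 (3.27 against 0.90 and 1.65) and Csf2rb (-0.99 against 0.18 and 0.20) lie farthest from the other cells.

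Of 25 transcription factors of the lineage, 7 were at least 1.5-fold lower in the MYC library and 2 higher, beside 14.4% and 7.27% of all genes, and the balance over all genes rests on the scaling as given above. They had a median log2 ratio of -0.29 against -0.13 for all genes and -0.32 for the same 25 genes in the other barcodes. Gata2, required for basophil and mast cell development, stood at 1418 CPM in control cells and 815 CPM in MYC cells (-0.80, -0.89 to -0.71). A Gata2 UMI was found in 97.8% and 96.9% of cells, and in 77.8% and 60.2% after thinning to 1000 UMIs. Its ratio was -0.76 in the other barcodes and -0.90 in granulocyte progenitors, so this difference was shared with them. Runx1, a regulator of definitive haematopoiesis that basophils need, stood at 601 and 330 CPM (-0.86, -1.01 to -0.72), against -0.32 in the other barcodes. Ikzf1 gave -0.91 and Fli1 -0.82. Cebpa, which opens the granulocyte programme, stood at 404 and 393 CPM (-0.04, -0.18 to 0.11).

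Irf8 and Cebpe rested on few cells. Irf8, a factor of monocyte and basophil progenitors, had 150 UMIs in the control, 53 of them in 1 cell, and 37 in the MYC library. Its log2 ratio was -1.81 and became 0.22 when only cells with at least 10 protease UMIs were used. Cebpe, a granulocyte and eosinophil factor, had 39 UMIs in control and 99 in MYC cells, 28 of them in 1 cell. Its ratio of 1.46 was 0.23 under the same limit.

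Of 13 granule content genes measured, 3 were at least 1.5-fold higher in the MYC library (Serpinb1a, Ctsg and Prg2) and none lower. The shares of all genes were 7.27% and 14.4%, and the 13 include Mcpt8, Prss34 and Cpa3, which chose the cells. The transcripts of granule contents other than the proteases used for selection differed gene by gene. Hdc stood at 692 CPM in control cells and 488 CPM in MYC cells (-0.50, -0.63 to -0.38), and at -0.55 in the other barcodes. Srgn, the proteoglycan core that holds granule proteases, stood at 1674 and 2145 CPM (0.36, 0.29 to 0.42). Cd63, a granule membrane protein exposed on activation, stood at 1347 and 1703 CPM (0.34, 0.26 to 0.41). Ctsg, cathepsin G, stood at 1504 and 3340 CPM (1.15, 1.09 to 1.21), against 0.86 in the other barcodes and 0.53 in granulocyte progenitors. Among the genes of the rule, Cpa3 stood at 2211 and 2176 CPM, Fcer1a at 1182 and 1060 CPM and Ms4a2 at 1059 and 899 CPM.

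Prg2, the eosinophil major basic protein, had 19 UMIs in control cells and 1894 UMIs in MYC cells, and 4 cells supplied nearly all of the latter. Those 4 MYC cells held 8, 383, 694 and 804 UMIs of Prg2 and 18, 43, 20 and 68 UMIs of Epx, eosinophil peroxidase. They held 6, 3, 3 and 3 UMIs of Mcpt8, none of Prss34, and 355, 146, 98 and 60 UMIs of Mpo, so 3 of them sat at the edge of the rule. Without cells rich in eosinophil, immunoglobulin or globin transcripts, the log2 ratio of Prg2 went from 6.65 to -1.33 on 18 UMIs. In the control library 2 selected cells held at least 100 immunoglobulin UMIs, and 14841 of the 18672 Igkc UMIs came from 1 cell. Cells with at least 50 UMIs of Hbb-bs numbered 3 and 4.

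Of 20 IgE receptor signalling genes measured, 1 was at least 1.5-fold lower in the MYC library and none was higher, beside 14.4% and 7.27% of all genes. The lower one was Gab2, an adaptor downstream of Lyn and Fyn, at 54.0 and 28.6 CPM. Intervals lay below 0 for 8 of the 20 and above 0 for 2. The median log2 ratio was -0.22. Fcer1a and Ms4a2, which chose the cells, are among the 20, so the count and median are a description. The γ chain gene Fcer1g stood at 928 and 1260 CPM (0.44, 0.35 to 0.53), and at 0.93 in the other barcodes. Lyn stood at 98.8 and 85.2 CPM (-0.21, -0.52 to 0.09) and Lat, the linker for activation, at 69.4 and 92.2 CPM (0.40, 0.08 to 0.74).

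Of 10 cytokine and chemokine transcripts measured, 2 were at least 1.5-fold higher in the MYC library, Ccl6 and Mif, and none was lower, beside 7.27% and 14.4% of all genes. Il4, the signature basophil cytokine, had 93 and 64 UMIs, or 44.8 and 34.5 CPM (-0.37, -0.86 to 0.10). Il6 stood at 82.9 and 70.6 CPM (-0.23, -0.57 to 0.11). Ccl3 stood at 619 and 647 CPM (0.06, -0.05 to 0.18) and Ccl4 at 355 and 313 CPM (-0.18, -0.34 to -0.02). Ccl4 gave -0.33 in granulocyte progenitors and 1.22 in all other barcodes. In cells with no UMI of Mki67 or Top2a the ratio of Ccl4 was 0.13. Ccl6 stood at 422 and 638 CPM (0.60, 0.47 to 0.72), just past 1.5-fold; it stayed past that limit in 5 of 13 alternatives, with 0.41 in cells of under 5% mitochondrial UMIs and 0.14 in cells with no UMI of Mki67 or Top2a. Tnf, below the limit of 100 UMIs, had 18 and 48 UMIs. Il13 had 1 and 2 UMIs, and Il3, Il5, Csf2 and Areg had none in either library.

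Receptors for cytokines and chemoattractants included several lower genes beside Csf2rb. Of 13 cytokine receptor genes 4 were at least 1.5-fold lower (Csf2rb, Il7r, Il18r1 and Il18rap) and none higher, beside 14.4% and 7.27% of all genes. Il18rap stood at 300 and 196 CPM (-0.61, -0.80 to -0.42), with -0.23 in the other barcodes. With median-of-ratios scaling Il18r1 (-0.52) and Il18rap (-0.48) were no longer past 1.5-fold. Over 13 alternatives Il18rap stayed past it in 9 and Il18r1 in 12. Il1rl1, the IL-33 receptor ST2, stood at 74.7 and 104 CPM (0.47, 0.17 to 0.79), whereas it gave -1.48 in the other barcodes and -0.98 in granulocyte progenitors. Crlf2, a chain of the TSLP receptor, stood at 159 and 211 CPM (0.41, 0.20 to 0.63). Of 9 receptors for chemoattractants and lipids, 2 were at least 1.5-fold lower (Cxcr4 and Cxcr2) and 1 higher (Ltb4r1), beside the same 14.4% and 7.27%. Cxcr4, the receptor that holds cells in the marrow, stood at 160 and 89.5 CPM (-0.83, -1.12 to -0.57), and Cxcr2 at 149 and 78.7 CPM (-0.92, -1.22 to -0.64). Ltb4r1, the leukotriene B4 receptor, stood at 115 and 191 CPM (0.73, 0.49 to 0.98).

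Of 8 genes of lipid mediator synthesis measured, 1 was at least 1.5-fold higher in the MYC library (Alox5ap) and 1 lower (Alox15). The shares of all genes were 7.27% and 14.4%. Alox5ap, which presents arachidonic acid to 5-lipoxygenase, stood at 669 CPM in control cells and 1144 CPM in MYC cells (0.77, 0.67 to 0.87), with the same 0.77 in the other barcodes. Alox5, the lipoxygenase itself, stood at 399 and 277 CPM (-0.52, -0.69 to -0.36). Alox15 stood at 156 and 99.2 CPM (-0.65, -0.92 to -0.38), and it stayed past 1.5-fold in 9 of 13 alternatives. Of 24 surface and adhesion genes, 3 were at least 1.5-fold lower and 1 higher, beside 14.4% and 7.27% of all genes, with a median of -0.30. Cd200r3, 1 of the 3, stood at 568 and 350 CPM (-0.70, -0.84 to -0.56). Cd69, an early activation marker, stood at 215 and 257 CPM (0.26, 0.07 to 0.45).

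The feature named MYC was close to its counting limit in these cells. It had 0 UMIs in the control cells and 1 in the MYC cells, and 3.05 CPM in the other barcodes of the MYC library. Its sequence is not given in the sources used here. Mouse Myc had 93 and 91 UMIs, or 44.8 and 49.1 CPM (0.13, -0.30 to 0.56). Over 13 alternatives its ratio ranged from -0.84, on 22 UMIs without cells holding 10 UMIs of Mpo and Elane, to 2.02, on 21 UMIs without cells with a UMI of Mki67 or Top2a, so no direction is given for it. Of its network partners, Mga, a MAX partner that represses, stood at 93.1 and 42.6 CPM (-1.11, -1.52 to -0.74) and Max at 60.3 and 63.6 CPM (0.08, -0.30 to 0.45).

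Genes often induced by MYC and those of growth were shifted upward, as in the rest of the marrow. Of 47 MYC-induced genes 9 were at least 1.5-fold higher and 1 lower, beside 7.27% and 14.4% of all genes. They had a median log2 ratio of 0.27 against -0.13 for all genes; in the other barcodes the same genes had a median of 0.26. Ran, a nuclear transport GTPase, stood at 368 and 595 CPM (0.69, 0.56 to 0.83), and Eno1, a glycolytic enzyme, at 102 and 191 CPM (0.89, 0.65 to 1.15). Tfrc, the transferrin receptor, stood at 43.9 and 148 CPM (1.73, 1.40 to 2.11), against 1.16 in granulocyte progenitors and -0.50 in the other barcodes. The ratio of Tfrc was 1.90 without cells rich in other-lineage transcripts and 0.19, on 108 UMIs, without cells holding at least 10 UMIs of Mpo and Elane.

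Ribosomal protein genes made up 165991 CPM in the control cells and 237000 CPM in the MYC cells. Of 87 measured, 39 were at least 1.5-fold higher and 1 lower, beside 7.27% and 14.4% of all genes. They had a median of 0.54 in the selected cells, 0.62 in the other barcodes and 0.29 in granulocyte progenitors. CPM are shares of a fixed total, so the CPM of the remaining genes add up to correspondingly less in the MYC library. The fall of Gm42418 given above is part of that, so the loss is not spread evenly over the remaining genes. Of 69 oxidative phosphorylation genes 14 were 1.5-fold higher and none lower, read against the same 7.27% and 14.4%, with a median of 0.34 against 0.30 in the other barcodes. Atp5g1, a subunit of ATP synthase, stood at 183 and 378 CPM (1.04, 0.87 to 1.23).

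Division genes had medians near 0 in basophil-lineage cells, with members on both sides. The median log2 ratio was -0.01 over 40 S phase genes and -0.06 over 51 genes of G2 and mitosis, while the same genes had medians of -0.51 and -0.31 in the other barcodes and -0.29 and -0.10 in granulocyte progenitors. Of the S phase genes none was at least 1.5-fold higher and 2 were lower, and of the G2 and mitosis genes 2 were higher and 1 was lower, beside 7.27% and 14.4% of all genes. Within non-dividing cells the medians were -0.45 and -0.25. Birc5, survivin, stood at 141 and 256 CPM (0.86, 0.65 to 1.08), and Mki67, which took part in the call of dividing cells, at 807 and 576 CPM (-0.48, -0.60 to -0.37).

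Few interferon response genes were deep enough to measure. Of 29 present, 8 had at least 100 UMIs, of which 4 were at least 1.5-fold lower in the MYC library and none higher, beside 14.4% and 7.27% of all genes. The median was -0.50 in the selected cells, with an interval over the 8 genes of -1.62 to 0.36 that includes 0, and -0.73 in the other barcodes. Ifi27l2a stood at 96.4 and 30.7 CPM (-1.62, -2.10 to -1.22). The richest control cell held 48 of the 200 Ifi27l2a UMIs, and in cells with no UMI of Mki67 or Top2a the ratio was 0.13 on 22 UMIs. Genes of protein folding and entry in the endoplasmic reticulum had a median of -0.16 in the selected cells, near the all-gene median of -0.13, and 0.12 in the others. Of 25, 6 were at least 1.5-fold lower and 2 higher, beside the same 14.4% and 7.27%. The median was 0.35, over 7 genes, in cells with no UMI of Mki67 or Top2a. Hsp90b1 stood at 1542 and 850 CPM (-0.86, -0.95 to -0.77), against Ssr4, a translocon subunit, at 445 and 891 CPM (1.0006, 0.89 to 1.12).

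**Figure D5:**
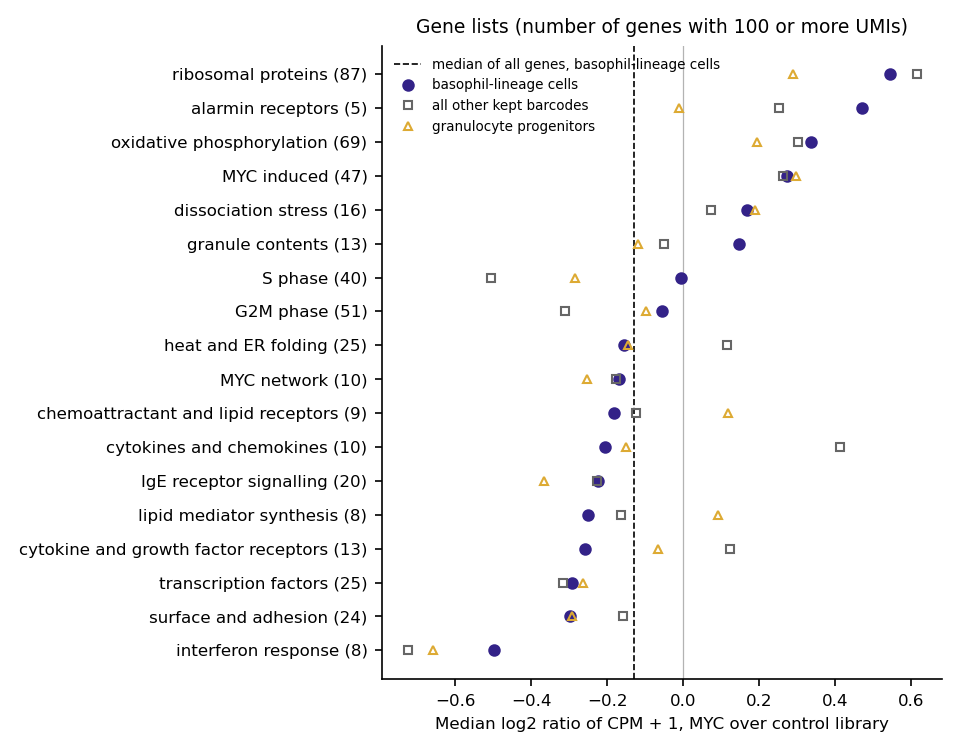
Median log2 ratio of CPM plus 1, MYC over control library (x axis), for each gene list (y axis, with the number of genes of at least 100 UMIs); circles are basophil-lineage cells, squares all other kept barcodes, triangles granulocyte progenitors, and the dashed line is the all-gene median of -0.13. Ribosomal protein genes lie highest (0.54) and interferon response genes lowest (-0.50), while the S phase list lies at -0.01 in basophil-lineage cells against -0.51 in the others. The granule contents and IgE receptor signalling lists include genes that chose the cells.

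Of 2926 genes with at least 200 UMIs, 2779 had a ratio in the selected cells within 1.5-fold of that in the rest of the marrow. Another 34 had ratios at least 2-fold apart in the selected and the other cells with intervals that did not overlap, 23 above and 11 below. In 10 of the 34, immunoglobulin genes, Prg2, Tfrc and red cell genes such as Car2 and Slc4a1, a single cell held at least 25% of a library's UMIs. Klf2, Tfrc and Il1rl1 were among those above, and Csf2rb and Ccl4 among those below. For Klf2 (1.65), Tfrc (1.16) and Ccl4 (-0.33) granulocyte progenitors had the same sign as the selected cells. Klf2 also had that sign in the other barcodes (0.90) and in megakaryocyte-lineage cells (0.91). Thy1, a surface glycoprotein, stood at 37.6 and 70.1 CPM in the selected cells (0.88, 0.48 to 1.32), and gave -1.80 in the others and -1.01 in granulocyte progenitors. Rgs1, a regulator of chemokine receptor signalling, stood at 225 and 160 CPM (-0.49, -0.71 to -0.28), and gave 1.87 in the others and 0.66 in granulocyte progenitors. The other barcodes are a mixture of many cell types, and their ratios also follow its composition.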

How the data were processed

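Mouse bone marrow cells of 2 genotypes, 1 library each, were measured with a droplet 3′ kit per the labels. The authors deposited UMI counts per gene and barcode, and per the file headers Cell Ranger 6.0.0 wrote them; GRCm38 and mm10 are named in the submitters' processing notes. From these counts barcodes with at least 1000 UMIs and under 10% mitochondrial UMIs were kept, with 131884603 UMIs over all 17073 control barcodes and 110012176 over all 14496 barcodes of the MYC library. No doublet call was applied: Scrublet, in scanpy 1.11.5, called 670 of 13251 control barcodes and 0 of 10543 in the MYC library, where it did not work. UMIs were summed over the selected cells of each library and given as CPM. Log2 ratios used a pseudocount of 1 CPM; genes with at least 100 UMIs were compared, and a gene was counted as higher or lower at 1.5-fold. Ratio intervals (95%) are exact conditional binomial, shares Clopper-Pearson, differences of shares Newcombe (scipy 1.17.1). Granulocyte progenitors (574 and 627 barcodes) held at least 10 UMIs of Mpo and Elane, and megakaryocyte-lineage cells (113 and 74) at least 3 of Pf4, Itga2b and Gp9; neither held 3 protease UMIs. The named genes are the 12 highest and 12 lowest ratios among genes that averaged 100 CPM or more and whose interval excludes 0, without markers of other cell types, genes of the selection, ribosomal, mitochondrial, globin, immunoglobulin and unnamed genes, plus genes of the lists. Tfrc, Thy1, Rgs1 and the genes of the last paragraph were chosen after their values were seen. The selected cells and the gene lists were chosen with earlier results of these data known. Ratios and intervals were tested on simulated data. Gene positions came from GENCODE vM21, where 32158 of 32286 features matched by identifier.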

Additional observations from a re-analysis of the deposited data

How the results depend on the processing

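The differences between the libraries in the share of basophil-lineage cells and of cells with division transcripts stayed within their main intervals under the alternatives tried; the shares themselves did not, with basophil-lineage shares of 1.09% and 1.29% after thinning and division shares of 28.1% and 27.3% after thinning and 75.7% and 77.0% at 1 UMI. The number of genes at least 1.5-fold higher (375) was 641 with median-of-ratios scaling, 245 with totals without the 20 most abundant genes, 633 with genes of at least 30 UMIs, 2078 with genes of at least 1 UMI and 148 (of 579 genes) without cells with a UMI of Mki67 or Top2a. The number of genes at least 1.5-fold lower (742) was 416, 1574, 2989 and 84 under the first, the third, the fourth and the last of these, 1040 with totals without the 20 most abundant genes, 473 with a pseudocount of 10 CPM and 397 (of 2530 genes) without cells with 10 UMIs of Mpo and Elane. Higher genes made up 33.6% of all calls in the main comparison, 60.6% with median-of-ratios scaling, 20.02% without Gm42418, 19.1% without the 20 most abundant genes, 46.3% without cells rich in Mpo and Elane and 63.8% without cells with division transcripts; the last 2 tested fewer genes. The median of MYC_induced genes (0.27) was 0.40 with median-of-ratios scaling and 0.78, over 5 genes, without cells with division transcripts. The median of ribosomal_proteins (0.54) was 0.68, 0.83 and, without cells rich in Mpo and Elane, 0.75. Without cells with a UMI of Mki67 or Top2a the median of all genes was 0.13, and Cebpe (-0.19), Hspa5 (0.61), Ccl4 (0.13), Ifi27l2a (0.13) and Tal1 (0.031) changed sign. Irf8 was 0.22 with at least 10 UMIs of Mcpt8 and Prss34. Prg2 was -1.54 under that limit, -1.33 without cells rich in other-lineage transcripts, -0.89 without cells rich in Mpo and Elane and -1.11 without cells with division transcripts. The cause of these changes was not tested beyond the fewer cells or genes each leaves. Klf2 ranged from 2.86 to 3.58, Csf2rb from -1.13 to -0.86 and Gata2 from -0.93 to -0.67 over 13 alternatives each. The settings without cells rich in Mpo and Elane or in other-lineage transcripts, without the richest cells and without the 5% of barcodes with the highest doublet score were chosen after seeing the data. Removal of called doublets was not run as planned, since no barcode of the MYC library was called. No paired analysis was possible because each genotype has 1 library and the labels carry no replicate numbers that pair them. With 185 and 161 cells, 5160 genes reached 100 UMIs, and rarer genes stand outside the counts.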
